A study of Xenopus laevis with 4 samples.

Results

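The forkhead (Fox) transcription factors were examined in early gastrula embryos of the frog *Xenopus laevis* in which Gcn5 was knocked down. Members were chosen by name: every gene model of the deposited table whose symbol, without its final .L or .S, reads fox, a subfamily letter from a to s and a number. This rule found 77 of 45098 models, which carry 42 symbols in 18 subfamilies. *X. laevis* is an allotetraploid, and its symbols end in .L or .S for the homeologs on the long and short subgenomes. Both homeologs were present for 35 symbols.

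Fox proteins bind DNA through a winged helix domain, and members such as the Foxa proteins can bind sites in closed chromatin. In the frog gastrula they act in each germ layer. Foxi2 acts in the animal cap ectoderm, and Foxh1 is the DNA-binding partner of Smad2 in Nodal signalling. Foxa2 and Foxa4 act in the organizer and midline, Foxc1 and Foxc2 in mesoderm, and Foxd factors in organizer and neural ectoderm. Foxo factors are held out of the nucleus by insulin and Akt signalling, and Foxm1 drives genes of the G2/M transition.

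Gcn5 (*kat2a*) is a histone acetyltransferase that works within the co-activator complexes SAGA and ATAC. Embryos received at the 1-cell stage either 0.8 ng of a DNA antisense oligonucleotide against Gcn5 (Gcn5-AS) or water (control), and RNA was sequenced from 2 samples per group. Each sample was a pool of 10 whole embryos at Nieuwkoop and Faber stage 10.5 from outbred stock, with no genotype named. The oligonucleotide is printed 5′ to 3′, because it defines the treated group, with its 7 bases between the modified ends in capitals. The modification is dimethyl-ethylene-diamine (DMED), which makes the ends resistant to nucleases.

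Gcn5-AS: tcaaaCACAAGCcgggtt

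The deposited values are group means of normalized counts, and they fixed the whole read counts of the 2 libraries behind each mean. The libraries are called X and Y in each group, X having the larger size factor. The letters do not show which is replicate 1 or 2. The 4 libraries held 2351039 to 4093025 reads in gene models, of which 36.0% to 50.2% came from the 10 most abundant models. Across all models tested, Gcn5-AS X stood farthest from the controls, with a standard deviation of log2 ratios of 1.11 and 1.17 against 0.92 and 0.84 for Gcn5-AS Y, 0.85 between the Gcn5-AS libraries and 0.74 between the controls. Gcn5-AS Y was thus about as far from Gcn5-AS X as from control Y. A normalized count is a library's reads divided by its size factor. It is not corrected for gene length, so levels of different genes are given in order of reads, not of transcripts. Nothing states that the pools came from separate clutches, so p-values measure the spread between these pools only.

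The targeted gene is given first. Values are listed with library X before library Y of the Gcn5-AS group and then of the control group. *kat2a.L* was at 52.9 and 62.6 normalized counts against 50.4 and 103.5, and *kat2a.S* was at 13.7 and 35.5 against 27.9 and 45.7. Both groups overlapped for both homeologs. The log2 fold changes were −0.26 (95% interval −1.11 to 0.58) and −0.67 (−1.70 to 0.35), with limma-voom adjusted p = 0.742 and 0.445. The reads of the target gene therefore neither passed the test nor went against the labels. The paper gives other evidence for the knockdown. It reports depleted *gcn5* transcripts by quantitative PCR and reduced Gcn5 at promoters by chromatin immunoprecipitation. It also reports a rescue of the phenotype with human *GCN5* mRNA.

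Of the 77 forkhead models, 30 had a mean normalized count of at least 10 over the 4 libraries and are called measured. A further 36 had reads below that level, with 1 to 48 reads over all libraries, and 11 had no read. The measured members fell in 10 subfamilies: Foxa, Foxc, Foxd, Foxh, Foxi, Foxj, Foxk, Foxm, Foxn and Foxo. The members just above the threshold were *foxc2.S* (mean 14.4), *foxd3.S* (15.9) and *foxd3.L* (16.3), and those just below it were *foxj1.S* (8.48), *foxo1.S* (8.40) and *foxb1.L* (7.57). Only *foxd3.L* among the measured members had a control mean under 10, so the filter on the mean of both groups let it pass through its Gcn5-AS level.

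In control embryos most forkhead reads came from few members. The highest means were those of *foxi4.2.S* (368 normalized counts), an ectodermal Foxi gene, its homeolog *foxi4.2.L* (325), *foxk2.L* (270.5), a broadly expressed regulator, and *foxh1.L* (256). They were followed by *foxc1.S* (174), *foxo3.L* (163) and *foxa1.L* (158). The 13 highest members held 79.6% of the family's control counts. Neighbours in this order overlapped between the control libraries down to *foxa1.L*, whose 157 and 159 lay above the 112 and 125 of the next member, *foxi2.S*.

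More forkhead genes were higher than lower in Gcn5-AS embryos. Of the 30 measured members, 26 had a positive log2 fold change (23 under either other scaling run) and 4 a negative one. The 26, and the 16 and 11 higher members counted below, include *foxd3.L*, whose direction was favoured by the count filter. The median was 0.77 beside 0.02 over all 11272 models tested, of which 51.0% were positive. At a false discovery rate of 0.1 in limma-voom, 4 members rose (*foxi2.L*, *foxi2.S*, *foxo3.L* and *foxh1.2.L*) and 1 fell (*foxa2.S*). These genes were picked by the test on their own values, which favours groups that lie apart. The separation described for them below adds no support. In the background of all models 8.63% were called, 4.46% higher and 4.17% lower. The paper's own DEseq analysis at the same false discovery rate reports far fewer changed transcripts, with more decreased than increased. Both Gcn5-AS libraries lay above both controls for 16 of the 30 and below them for 1, where the background was 26.3% and 25.0%. An unadjusted p under 0.05 was reached by 12 members, 11 of them higher, beside 22.0% of all models. Scaling to total reads lowered the median of all models by 0.17 on the log2 scale. It rescales all models of a library by the same factor, though fitted changes shifted unequally (*foxa1.S* 0.52 to 0.49, *foxo1.L* 1.12 to 0.73). The members' offset from that median stayed at 0.75, which such a rescaling favours, so it adds no support.

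**Figure D1:**
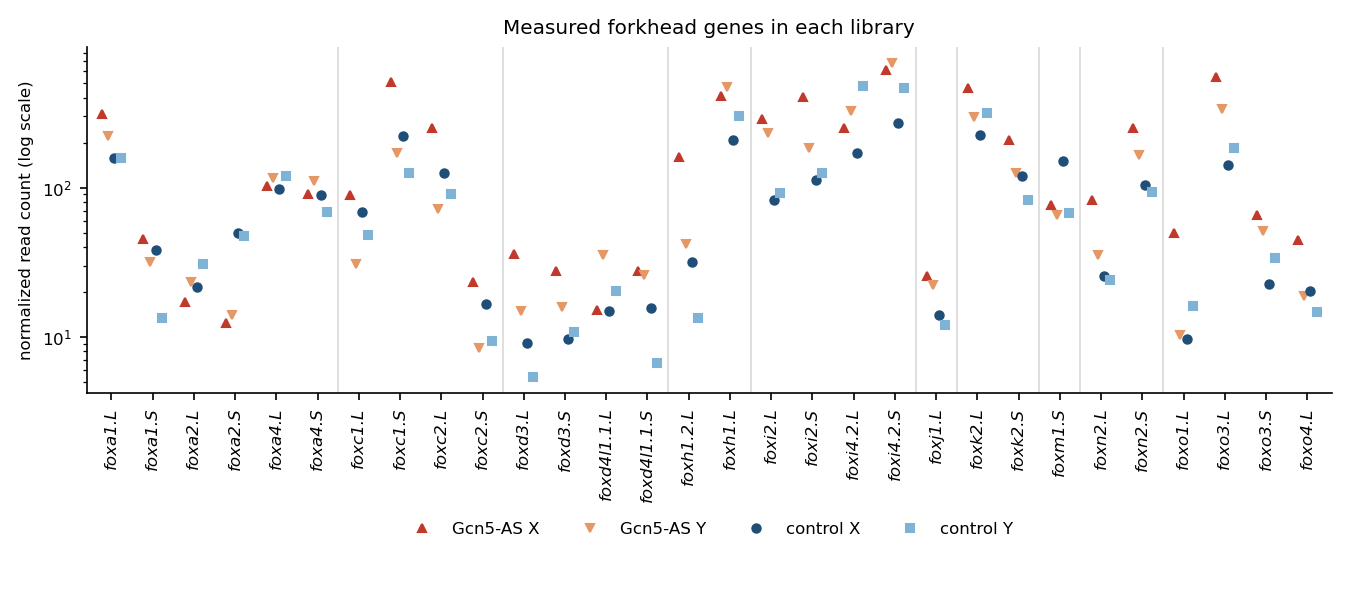
Normalized read count (vertical axis, log scale) of each of the 30 measured forkhead genes in the 4 libraries, grouped by subfamily letter with vertical lines between subfamilies. Triangles are the Gcn5-AS libraries and circles and squares the controls; the Gcn5-AS X library is the highest of the 4 for 21 of the 30 genes.

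The 2 Gcn5-AS libraries did not contribute equally. The summed normalized count of all forkhead models was 5663 and 4043 in the Gcn5-AS libraries, against 2746 and 3176 in the controls, a ratio of group means of 1.64. Gcn5-AS X was above Gcn5-AS Y for 22 of the 30 measured members. Without Gcn5-AS X, 23 members were still positive and the median stood 0.45 above that of all models.

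**Figure D2:**
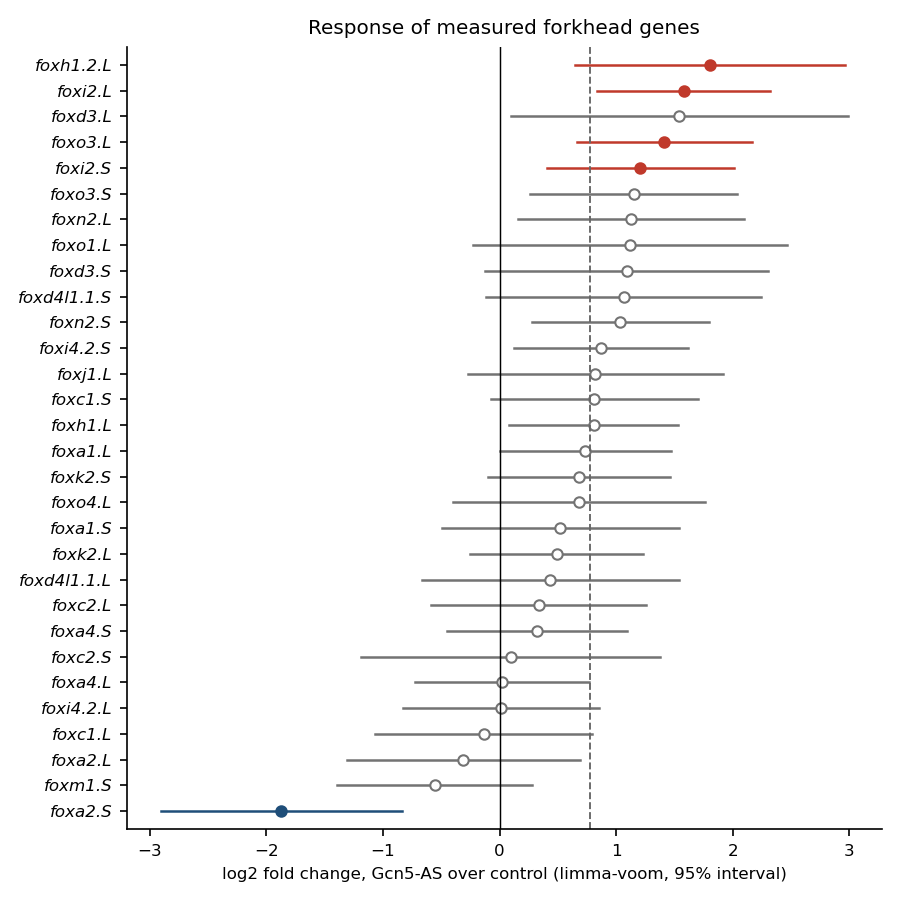
Log2 fold change of Gcn5-AS over control (horizontal axis, limma-voom) with its 95% interval for each measured forkhead gene. Red marks the 4 genes called higher and blue the 1 called lower, open circles were not called, and the dashed line is the median of the 30 genes, 0.77.

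The Foxi genes gave 2 of the 4 rises. Foxi2 is a maternally supplied factor of the animal hemisphere in *Xenopus*. *foxi2.L* was at 288 and 233 normalized counts in the Gcn5-AS libraries and at 82.6 and 91.4 in the controls. Both Gcn5-AS libraries stood well above both controls, which were close together. The ratio of means was 2.99, with a log2 fold change of 1.58 (95% interval 0.84 to 2.32) and adjusted p = 0.017. *foxi2.S* was at 404 and 183 against 112 and 125. The groups again did not overlap, but Gcn5-AS X was far above Gcn5-AS Y. The log2 fold change was 1.21 (0.41 to 2.01), adjusted p = 0.076, and without Gcn5-AS X it was 0.63 and was no longer called.

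The values of the more abundant Foxi gene, *foxi4.2*, are given for each homeolog. *foxi4.2.S* was at 611 and 686 against 271 and 465, with a log2 fold change of 0.87 and adjusted p = 0.158. *foxi4.2.L* was at 249 and 327 against 169 and 480.1, so that the controls enclosed both Gcn5-AS libraries, and its log2 fold change was 0.02. As a share of *foxi2* and *foxi4.2* reads, which does not depend on the scaling between libraries, *foxi2* made up 44.6% (95% Wilson interval 42.6 to 46.7) and 29.1% (26.9 to 31.4) in the Gcn5-AS libraries. The controls were at 30.7% (28.1 to 33.3) and 18.6% (16.2 to 21.4), which overlaps the Gcn5-AS range. These intervals cover counting error only.

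*foxi1.L* was below the level tested. It had 0 and 4 reads in the Gcn5-AS libraries and 4 and 9 in the controls. The single other Foxi gene of the table, *foxi4.1*, lies beside *foxi4.2* in the RefSeq gene order, with 2 reads for the L and 0 for the S homeolog where *foxi4.2* had 1385 and 2474.

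Epidermal and other genes around Foxi1 and Foxi2 were lower or did not pass. The list of them, like the other lists below, was chosen with earlier results of these data known, so its counts only describe. Over all models 51.0% were positive, 4.17% were called lower and 4.46% higher. Of 18 measured models on this list, 6 were positive and 12 negative, with a median log2 fold change of −0.20. At the false discovery rate of 0.1, 4 were called lower and none higher. The 4 were *krt.L*, *krt12.S* and *krt5.7.S*, which encode keratins, and *dlx3.S*, an ectodermal homeobox factor. *krt.L* was at 30.2 and 56.0 against 219 and 188, *krt5.7.S* at 458 and 569 against 1466 and 1291, and *dlx3.S* at 39.8 and 40.2 against 98.1 and 136. *krt12.S* was at 0 and 5.60 against 38.1 and 41.7, so it passed the count filter only through its control level, which favoured a fall. None of these models overlapped between the groups, but they were picked by small p-values, which favours separated groups. The summed count of the ectoderm markers, all on this list, was 1637 and 1971 in the Gcn5-AS libraries against 4105 and 3319, with reads for all 7 of their models. In whole embryos fewer cells of a type and less RNA per cell cannot be told apart.

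Foxh1 recruits Smad2 to Nodal target genes. *foxh1.L* was at 412 and 468 normalized counts in the Gcn5-AS libraries and at 209 and 303 in the controls. The groups did not overlap, and the log2 fold change of 0.81 (0.08 to 1.53) did not pass, with adjusted p = 0.179. The related gene *foxh1.2.L* was at 161 and 42.0 against 31.6 and 13.4, that is 234 and 45 reads against 59 and 10. Gcn5-AS X was far above the other libraries, and Gcn5-AS Y was only a little above control X. It was called higher, with a ratio of 4.50, a log2 fold change of 1.81 (0.65 to 2.96) and adjusted p = 0.067. Without Gcn5-AS X the log2 fold change was 0.80 and the call was lost.

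*foxh1.2.L* made up 27.9% (Wilson interval 24.9 to 31.0) and 8.18% (6.17 to 10.8) of all *foxh1* and *foxh1.2* reads in the Gcn5-AS libraries. The controls were at 12.6% (9.90 to 15.9) and 4.202% (2.30 to 7.56), so this share overlapped between the groups. *foxh1.S* was low throughout, with 3 to 19 reads per library.

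The Nodal and Foxh1 list was mostly higher. Of its 23 measured models 18 were positive, 7 rose and none fell, with a median of 0.75. Over all models 51.0% were positive and 4.46% rose. This list too was chosen with earlier results known, and the paper names *gsc* among transcripts increased by the knockdown. The mesendoderm regulators *mix1* and *eomes* and the organizer gene *gsc* rose in both homeologs, and *tdgf1.3.S*, which encodes a Nodal co-receptor, also rose. *mix1.S* was at 860 and 434 normalized counts against 170 and 149, with a log2 fold change of 1.92 and adjusted p = 0.0070. *gsc.L* was at 271 and 206 against 66.5 and 82.0 (adjusted p = 0.013), *gsc.S* at 247 and 264 against 85.2 and 80.7 (0.014), and *eomes.S* at 527 and 206 against 114 and 87.4 (0.022). In each the Gcn5-AS libraries lay above both controls, which picking models by small p-values favours.

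Foxa genes mark endoderm, organizer and midline, and they held the only call in the downward direction. *foxa2.S* was at 12.4 and 14.0 normalized counts in the Gcn5-AS libraries and at 49.9 and 47.1 in the controls, from 18 and 15 reads against 93 and 35. Each pair of libraries was tight and the pairs were far apart. The control mean was 3.67 times the Gcn5-AS mean, with a log2 fold change of −1.87 (−2.90 to −0.84) and adjusted p = 0.035. Leaving out Gcn5-AS X or either control removed the call, with log2 fold changes of −1.76 to −1.90.

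*foxa2.L*, the other homeolog, was at 17.2 and 23.4 against 21.4 and 30.9, which overlap, and the log2 fold change was −0.31 (−1.31 to 0.69). With both homeologs summed, *foxa2* was at 29.5 and 37.4 against 71.3 and 78.0, a log2 fold change of −1.16 (−1.98 to −0.34) with adjusted p = 0.111. Within each library *foxa2* supplied 5.09% (Wilson interval 3.80 to 6.78) and 7.23% (5.36 to 9.70) of Foxa reads in Gcn5-AS X and Y. The controls were at 15.7% (13.4 to 18.3) and 17.8% (14.0 to 22.3), without overlap. This share uses the same *foxa2.S* reads that gave the call, which favours groups that lie apart. It is therefore no separate support.

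The other Foxa genes were level or higher. *foxa1.L* was at 313 and 220.4 against 157 and 159, above both controls, with a log2 fold change of 0.74 and adjusted p = 0.225, and *foxa1.S* was lower in level, at 13.4 to 45.3 in the 4 libraries. *foxa4.L* was at 102 and 116 against 97.6 and 120, and *foxa4.S* had 131 and 119 reads against 167 and 51, or 68.6 to 111 normalized counts. The controls enclosed *foxa4.L* of both Gcn5-AS libraries, and the log2 fold changes of these organizer genes were 0.02 and 0.32.

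Genes of endoderm and midline on the Foxa list were mostly higher. Of 17 measured models 14 were positive, 4 rose and none fell, with a median of 0.68. Over all models 51.0% were positive and 4.46% rose. The choice of this list also followed earlier results, and the paper names *not* among its increased transcripts. *ptf1a.L* was at 56.3 and 34.6 against 5.90 and 14.8, the notochord homeobox genes *not.S* at 989 and 750.0 against 257 and 381 and *not.L* at 725 and 464 against 208 and 238, and the endodermal *sox17b.1.S* at 1206 and 1650 against 628 and 601. All 4 lay above both controls, and they too were picked by small p-values. The summed organizer markers were at 2329 and 1788 in Gcn5-AS X and Y against 758 and 863. Most of each organizer sum came from the *gsc* and *not* models, which were picked by small p-values. These sums therefore do not show a rise in the other organizer markers. The endoderm markers were at 6601 and 5744 against 3537 and 3529. No organizer or endoderm marker model was at 0 in all libraries. Of these markers, 4 of the 6 organizer symbols and all 6 endoderm symbols are also on the Foxa list, and the organizer markers *gsc* and *cer1* are on the Nodal and Foxh1 list. Their part in the Fox results was not tested.

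Among the Foxo genes *foxo3.L* rose. It was at 548 and 335 normalized counts in the Gcn5-AS libraries and at 142 and 184 in the controls. The groups did not overlap, and the ratio was 2.71, the log2 fold change 1.41 (0.66 to 2.16) and adjusted p = 0.030. Its homeolog *foxo3.S* was at 66.0 and 51.4 against 22.5 and 33.6, again without overlap, with a log2 fold change of 1.15 (0.26 to 2.04) and adjusted p = 0.122. *foxo1.L* reached 49.5 in Gcn5-AS X and 9.65 to 16.1 in the other 3 libraries. *foxo4.L* was likewise highest in Gcn5-AS X, at 44.7 against 14.8 to 20.4 elsewhere.

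Summed over the subfamily, Foxo counts were at 718 and 428 against 198 and 257, a ratio of means of 2.52. Gcn5-AS X was well above Gcn5-AS Y. Most of each sum came from *foxo3.L* (548 and 335 against 142 and 184), which was called on these same reads. The sum therefore does not show a rise in the other Foxo genes. The insulin and Foxo list held no call. Of its 21 measured models 13 were positive, and the median was 0.09. In limma-voom none was called and 1 had an unadjusted p under 0.05. Over all models 51.0% were positive, 8.63% were called and 22.0% had an unadjusted p under 0.05. The list model under 0.05 was *gadd45a.L*, a growth arrest gene, at 135 and 84.1 against 57.4 and 48.4 (adjusted p = 0.138). The insulin receptor substrate gene *irs2.L* was at 19.9 and 21.5 against 39.1 and 37.7, and *irs1.L* at 52.2 and 19.6 against 18.2 and 14.8.

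The Foxn and Foxd genes were higher in every measured member, but none passed the test. Of these *foxd3.L*, with a control mean of 7.25, passed the count filter only through its Gcn5-AS level, which favoured its direction. *foxn2.S* was at 251 and 165 against 104 and 94.1, with a log2 fold change of 1.04 (0.28 to 1.79) and adjusted p = 0.102, just over the threshold of 0.1. *foxn2.L* was at 82.4 and 35.5 against 25.7 and 24.2, also without overlap (log2 fold change 1.12, adjusted p = 0.162). The Foxd genes were low. *foxd3.L*, which acts in the organizer and later in neural crest, was at 35.7 and 14.9 against 9.11 and 5.38, with a log2 fold change of 1.54 (0.09 to 2.99) and adjusted p = 0.200. *foxd3.S* and the neural ectoderm genes *foxd4l1.1.L* and *foxd4l1.1.S* had log2 fold changes of 1.09, 0.43 and 1.06.

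Foxc genes followed single libraries more than groups. *foxc1.S* was at 510.4 and 171 against 222 and 125, *foxc2.L* at 250.1 and 71.9 against 124 and 90.1, and *foxc1.L* at 89.3 and 30.8 against 69.2 and 48.4. In each, Gcn5-AS X was the highest library and Gcn5-AS Y lay between or below the controls. The log2 fold changes were 0.81 (−0.08 to 1.70), 0.33 and −0.14, and none was called. *foxc2.S* had a log2 fold change of 0.10 at 8.41 to 23.4 counts. The summed mesoderm markers showed the same order of libraries within the Gcn5-AS group, at 1162 and 706 against 919 and 695. This order was not particular to mesoderm. The organizer (2329 and 1788) and endoderm (6601 and 5744) sums were also higher in Gcn5-AS X than in Gcn5-AS Y. Those of ectoderm (1637 and 1971), germ plasm (268 and 551) and late differentiation were lower in Gcn5-AS X. The part of this difference between libraries in the Foxc values was not tested.

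Foxk, Foxj and Foxm completed the measured members. *foxk2.L* was at 466 and 297 against 224 and 317, with overlapping groups, and *foxk2.S* at 209 and 125 against 119.5 and 82.0, with log2 fold changes of 0.49 and 0.68. *foxj1.L*, a regulator of motile cilia, was at 25.4 and 22.4 against 13.9 and 12.1 (log2 fold change 0.82, −0.27 to 1.92). *foxm1.S* was at 76.9 and 65.4 against 152 and 67.2, so that only control X stood apart, and *foxm1.L* had 1 to 6 reads per library. The log2 fold change of *foxm1.S* was −0.56 (−1.40 to 0.28).

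The G2/M list around Foxm1 had 12 of 24 measured models positive and a median of 0.00. Over all models 51.0% were positive, 4.46% rose and 4.17% fell. In limma-voom 7 of the 24 had an unadjusted p under 0.05, beside 22.0% of all models. Of the 24 models 1 rose, near the share over all models. The mitotic kinase gene *aurka.L* rose, at 140.1 and 163 against 55.2 and 72.6 (adjusted p = 0.052), and none fell. *aurkb.L* was at 464 and 418 against 198 and 277, whereas the kinetochore and centromere genes *kif2c.L* and *cenpf.L* were lower, at 13.1 and 27.1 against 44.0 and 48.4 and at 8.24 and 16.8 against 40.2 and 21.5. These 3 had adjusted p = 0.129, 0.106 and 0.130.

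Among 17 forkhead pairs with a summed mean of at least 20 normalized counts, 12 had both homeologs measured. The log2 fold changes of both had the same sign in 11 of these 12, beside 73.8% of all 2286 such pairs, but in 8 of 12 under either other scaling, since *foxa4.L*, *foxc2.S* and *foxi4.2.L* lay near 0. The L/S ratio within a library does not depend on scaling. In a limma fit of its log2 value over 3206 pairs, none was called at a false discovery rate of 0.1 (0.00%), among forkhead pairs or others. On simulated pairs this fit found 80 of 182 changes of log2 size 2, with 14 false among 94 calls. The lack of calls therefore does not show that homeologs responded alike. An unadjusted p under 0.05 was reached by 4 forkhead pairs and by 8.42% of all pairs.

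Those 4 pairs were *foxa2*, *foxc1*, *foxi4.2* and *foxh1*. In *foxa2* the L homeolog supplied 58.1% (Wilson interval 43.3 to 71.6) and 62.5% (47.0 to 75.8) of reads in Gcn5-AS X and Y against 30.1% (22.9 to 38.3) and 39.7% (28.1 to 52.5) in the controls. The group ranges were apart, while the intervals of single libraries overlapped. The difference in log2 L/S ratio was 1.49 (0.19 to 2.79), with adjusted p = 0.560 over all pairs.

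The L share of *foxc1* was 14.9% and 15.3% against 23.7% and 27.9%, and that of *foxi4.2* was 28.9% and 32.3% against 38.5% and 50.8%. Both shares were lower in each Gcn5-AS library than in either control, with differences in log2 ratio of −0.96 and −0.87. The limma adjusted p over all pairs was 0.554 and 0.561. These pairs and *foxa2* were picked by their unadjusted p on this same ratio, which favours groups that lie apart. The *foxh1* pair was almost wholly L in all libraries, from 95.4% to 99.2%. Over 90% of reads came from 1 homeolog in every library for 3 pairs, including *foxm1* on the S side and *foxo4*, whose S homeolog had no read.

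**Figure D3:**
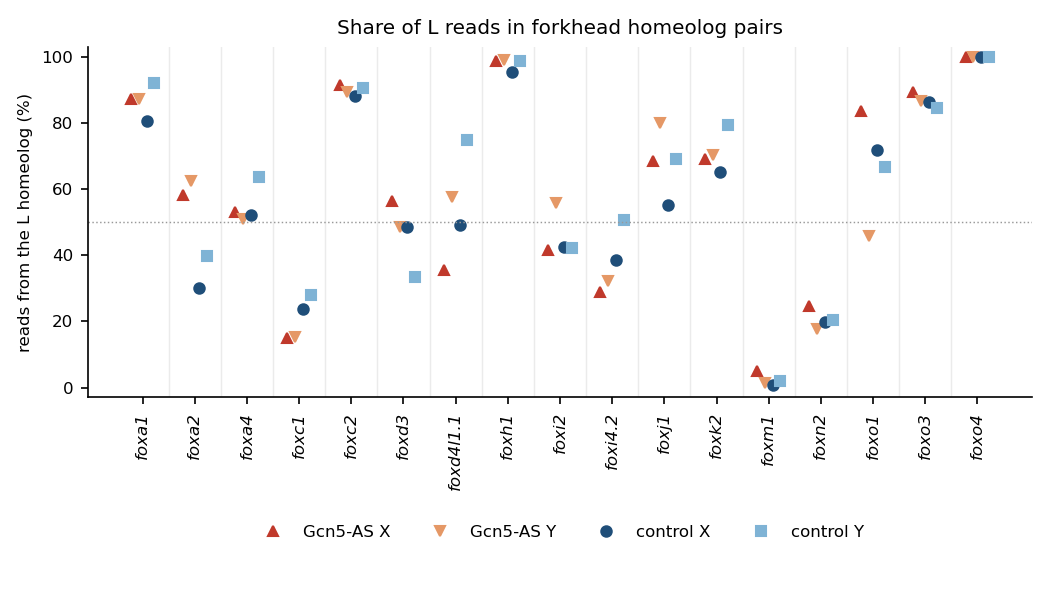
Percentage of reads from the L homeolog (vertical axis) in the 17 forkhead homeolog pairs tested, in each of the 4 libraries. For *foxa2* the Gcn5-AS libraries are at 58.1% and 62.5% and the controls at 30.1% and 39.7%; for *foxc1* and *foxi4.2* both Gcn5-AS libraries are below both controls.

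The low members were 21 higher and 15 lower by their group means, and they were not tested. They include genes known from later tissues: *foxf1* of visceral mesoderm, *foxl2* of the ovary and *foxn1* of the thymus. *foxj1.2.S* had 6 and 2 reads in the Gcn5-AS libraries and 0 and 0 in the controls. At these counts no difference can be read.

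No read was found for *foxb2.L*, *foxb2.S*, *foxe1.L*, *foxe1.S*, *foxe3.S*, *foxi4.1.S*, *foxj2.1*, *foxl1.S*, *foxn4.L*, *foxo4.S* and *foxp3.1*. Among them are regulators of thyroid (Foxe1), lens (Foxe3) and regulatory T cells (Foxp3) in vertebrates. A count of 0 allows up to 3 reads, which is 1.61 to 4.03 normalized counts depending on the library. The markers of late differentiation were as low, summing to 0.69 to 8.58 normalized counts with no read for 5 of their 10 models. No subfamily was without reads altogether, but Foxe had 1 read and Foxq 2 reads.

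The calls depended on the scaling and on single libraries. Scaled to total reads, none of the 30 members was called. In that limma-voom fit 4 members had an unadjusted p under 0.05, beside 11.7% of all models, so this count is near the background. All models then split into 19 higher and 171 lower calls in place of 503 and 470. Without Gcn5-AS X, control X or control Y, most or all of the 5 called members lost the call, in fits that leave 1 library in a group. Without 1 library their log2 fold changes ran from 1.43 to 1.73 (*foxi2.L*), 0.63 to 1.77 (*foxi2.S*) and 1.06 to 1.77 (*foxo3.L*). Those of *foxh1.2.L* and *foxa2.S* ran from 0.80 to 2.72 and from −1.95 to −1.76. The 5 kept their direction under all alternatives run.

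**Figure D4:**
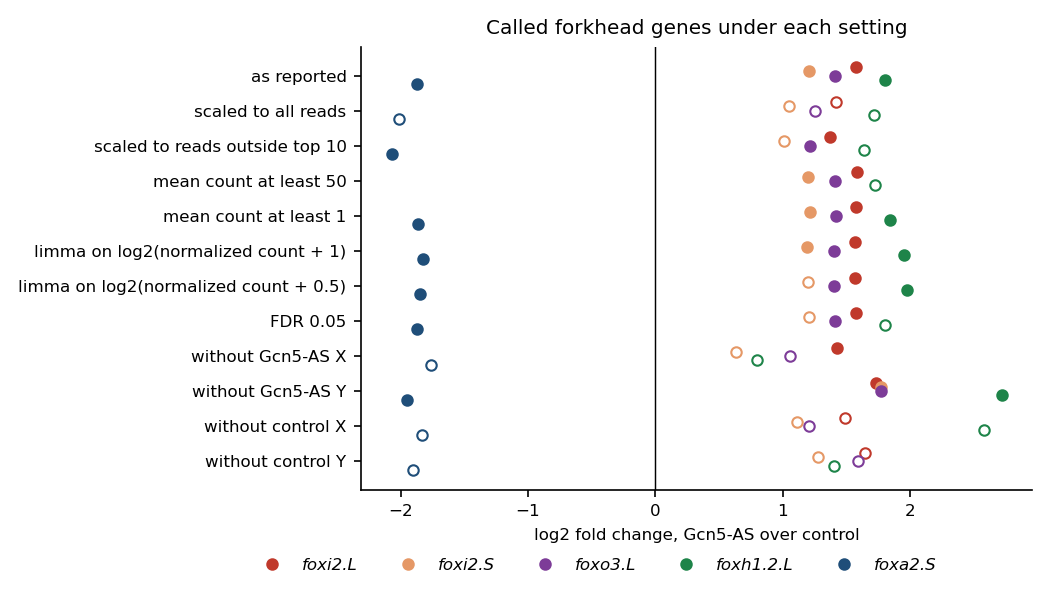
Log2 fold change of Gcn5-AS over control (horizontal axis) of the 5 called forkhead genes under each setting (vertical axis). Filled circles passed the false discovery rate of that setting and open circles did not; *foxa2.S* is on the negative side and the other 4 on the positive side throughout, and *foxa2.S* has no value at the minimum of 50.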

How the data were processed

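RNA was depleted of ribosomal RNA and sequenced as single-end reads of 75 nucleotides; the strand setting is not given in the sources used here. Per the labels and the study's methods, the authors mapped reads with STAR to *X. laevis* JGI 9.1 with 1 mismatch allowed and normalized gene counts with DEseq. The deposited table holds, as a signal, the mean normalized count of each group and of both. Deposited columns of the authors' own comparison (a log2 fold change, p-value and adjusted p-value from DEseq) were not used. Control samples carry the Gcn5-AS injection in a shared treatment text, while titles and other fields give water; they were taken as controls.

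Each group mean is the average of 2 whole read counts, each divided by its library's size factor. For all 21410 Gcn5-AS and 21721 control means above 0, exactly 1 pair of whole counts matched at a relative tolerance of 3e-14. Libraries held 3679948, 3610092, 4093025 and 2351039 reads (Gcn5-AS X and Y, control X and Y), with size factors 1.46, 1.07, 1.87 and 0.744. These counts were fitted with limma-voom (limma 3.58.1, R 4.3.3) with the deposited scaling over 11272 models with a mean of at least 10, two-sided, with Benjamini-Hochberg adjustment and a false discovery rate of 0.1. The plan set a count model only for a table that gives counts per library itself. The table holds group means, so the recovered counts were fitted with limma-voom, as planned for that case. L/S ratios used 0.5 added reads and limma over 3206 pairs. In simulated data (11259 models) the group comparison found 15 of 98 changes of log2 size 1 and 70 of 98 of size 2. Of 90 calls 5 were false. This simulation and that of homeolog pairs gave every model the same dispersion of 0.0647, with no library standing apart. In the data Gcn5-AS X did stand apart, so these shares of false calls do not carry over.

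The text names every called member, every member with a mean of at least 50 and their homeologs, members next to the threshold, those without reads, and up to 4 models of each list with the smallest p; *foxi1* and other low members were picked by role or after their values were seen. Members and lists were chosen with earlier results of these data known. Of the 77 models 70 matched RefSeq (v10.1 assembly), which was used for gene order only. Near-identical homeologs can share reads, and how the authors counted those is not given in the sources used here. Alternatives were total-read scaling, scaling without the 10 most abundant models, minimums of 1 and 50, limma on log2 values, a false discovery rate of 0.05, summed homeologs and leaving out each library.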

Additional observations from a re-analysis of the deposited data

How the results depend on the processing

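With 2 pools a group, a log2 change of 1 was mostly beyond detection in simulated data, so an uncalled member is not shown to be unchanged. Called members numbered 5 (4 higher, 1 lower). They were 0 with scaling to total reads and 3 (2 higher, 1 lower) with scaling outside the 10 most abundant models. They were 3 (3 higher, 0 lower) at a minimum of 50, where only 17 members were tested and *foxa2.S* was not. They were 3 (2 higher, 1 lower) at a false discovery rate of 0.05 and 2 (2 higher, 0 lower) with homeologs summed. Leaving out 1 library gave 0 to 14, 0 to 13 of them higher and 0 to 1 lower; the 14 came without Gcn5-AS Y, and 9 members were called only then. Over all models, higher and lower calls were 19 and 171, 195 and 595, 320 and 197, 223 and 242, and 324 and 339 under these settings in the same order, and 6 to 1421 and 76 to 836 without 1 library. The list models called were 16, then 3 with total reads and 2 to 34 without 1 library (34 without Gcn5-AS Y, 2 without control X). The list medians were, with total reads, −0.10 (Foxo), −0.13 (Foxm1) and −0.40 (Foxi). At a minimum of 50 they were 1.32 (Nodal, 13 models tested) and 0.24 (Foxo, only 2 models tested). Without 1 library they ran from 0.54 to 1.06 (Nodal), 0.20 to 0.33 (Foxo), −0.04 to 0.20 (Foxm1), −0.53 to −0.23 (Foxi) and 0.42 to 0.94 (Foxa). Some uncalled log2 fold changes changed sign. Without 1 library these included values away from 0, such as *foxo1.L* (1.12 as reported) and *foxm1.S* (−0.56). The log2 fold changes that changed sign under another scaling lay near 0. With total reads and with scaling outside the 10 most abundant models they were −0.14 and −0.18 (*foxa4.L*), −0.15 and −0.13 (*foxc2.S*) and −0.15 and −0.18 (*foxi4.2.L*); *foxi4.2.L* was also −0.0003 at a minimum of 50 and −0.0007 and −0.0005 with limma on log2(count + 1) and log2(count + 0.5). Without 1 library the ranges were −0.14 to 0.16 (*foxa4.L*), −0.73 to 0.69 (*foxc2.S*), −0.75 to 0.75 (*foxi4.2.L*), −0.95 to 0.57 (*foxc1.L*), −0.58 to 1.21 (*foxc2.L*), −0.12 to 1.098 (*foxd4l1.1.L*), −1.09 to 0.074 (*foxm1.S*), −0.091 to 2.12 (*foxo1.L*), −0.85 to 0.19 (*kat2a.L*) and −1.27 to 0.076 (*kat2a.S*). The other 17 uncalled members kept their sign in all alternatives. The cause of these changes was not tested. No paired analysis was possible because nothing in the group means ties a recovered library to replicate number 1 or 2.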
